A study of Mus musculus with 12 samples.

Results

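Ribosome biogenesis and nucleolar factors were followed as a set of 41 genes, chosen by name for their place in making ribosomes: RNA polymerase I, the proteins of box C/D and box H/ACA small nucleolar ribonucleoproteins (snoRNPs), multifunctional nucleolar proteins, and assembly factors of the small and the large ribosomal subunit. Of these, 40 had a probe set of their own among 18194 genes with one, and all 40 were among the 12071 genes tested, which reached a mean signal of 50 in any group. Mrto4, an assembly factor of the large subunit, was not measured here because its probe set also names other genes. The members were chosen with earlier results of these data known. The study asked how luteolin, a plant flavonoid, alters gene expression in resting and activated microglia. BV-2 cells, mouse microglia immortalized with a retrovirus that carries the oncogenes v-raf and v-myc, were kept for 24 h with both luteolin (50 µM) and LPS (50 ng/ml), with LPS or luteolin alone at those same doses, or untreated (control), with 3 arrays in each of the 4 groups and 12 in all. LPS is the bacterial lipopolysaccharide that activates microglia. All groups are the same cell line, which carries the viral oncogenes in every condition and is not primary microglia. The methods dissolve luteolin in DMSO, and whether the control arrays also received DMSO was not given in the sources used here.

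Ribosomes are assembled in the nucleolus around the ribosomal RNA that RNA polymerase I transcribes. Guided by small nucleolar RNAs, box C/D proteins methylate this RNA and box H/ACA proteins change uridine to pseudouridine, while helicases, GTPases and scaffold proteins fold, cut and export the precursors of each subunit. Transcription factors of the MYC family bind E-boxes (CACGTG) and are known to raise many of these genes in growing cells.

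Expression is given as the linear signal that the RMA algorithm computes for a probe set, which corrects background and brings the arrays towards a common distribution. Differences are on the log2 scale, with the standard error (SE) of limma, and adjusted p-values follow Benjamini and Hochberg over the 12071 genes, with a threshold of 0.05. The 12 markers of microglia and macrophages were all detected, at summed signals of 62477 to 83889 in luteolin + LPS, 70656 to 83584 in LPS, 74868 to 83448 in luteolin and 76623 to 81306 in control. Of the markers of other cell types with a probe set, 3 of 8 for neurons, 2 of 7 for astrocytes, 4 of 6 for oligodendrocytes and 1 of 7 for fibroblasts reached a signal of 50. The summed signal of the 6 oligodendrocyte markers was 988 to 1414 in luteolin + LPS, 1578 to 1734 in LPS, 1378 to 2144 in luteolin and 1481 to 2556 in control, and its part in the members' values was not tested. In a bulk sample, less RNA per cell and fewer expressing cells cannot be told apart. The study names 3 independent stimulation experiments, and arrays that share a replicate number deviated together. Fits with the number as a block are therefore also given, mostly where they change a call. RMA brought the arrays to nearly the same distribution, with median signals of 52.2 to 56.4 over all probe sets, so a shift shared by most genes would largely be removed.

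All 40 members had average signals above the median of the genes tested, and 14 were among the brightest 10%. Npm1 (nucleophosmin, a histone chaperone that also acts on the large subunit) averaged 15432, Ncl (nucleolin, which binds nascent ribosomal RNA) 12164, Nhp2 9354 and Nop10 6864, both partners of the pseudouridine synthase. The lowest averages were 509.9 for Rrp12 (an export factor of ribosomal precursors) and 583 for Polr1a, the largest subunit of RNA polymerase I. Signals of different genes also depend on their probes, so this order is one of probe signal.

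The 4 arrays of replicate 1 stood apart for these genes. Relative to the mean of the control arrays, the median member lay at -0.55 in luteolin + LPS replicate 1, against 0.026 and -0.11 in replicates 2 and 3 of that group. It lay at -0.35, -0.085 and -0.032 in the LPS arrays, at -0.52, -0.18 and -0.18 in the luteolin arrays and at -0.15, 0.034 and 0.11 in the control arrays. Replicate 1 was the lowest array of its group for 36 of 40 members in luteolin + LPS, 31 in LPS, 33 in luteolin and 31 in control, and for 35.0%, 45.9%, 39.1% and 39.8% of all genes tested in the same order of groups. For 23 of 40 members (57.5%) the replicate number took the largest share of the variance over the 12 arrays, against 29.3% of all genes. Luteolin took the largest share for 8 members (20.0%), against 13.8% of all genes, and LPS for 1 member, Polr1c (2.5%), against 20.3% of all genes. Results are therefore also given without the arrays of replicate 1, a setting chosen after seeing the data.

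**Figure D1:**
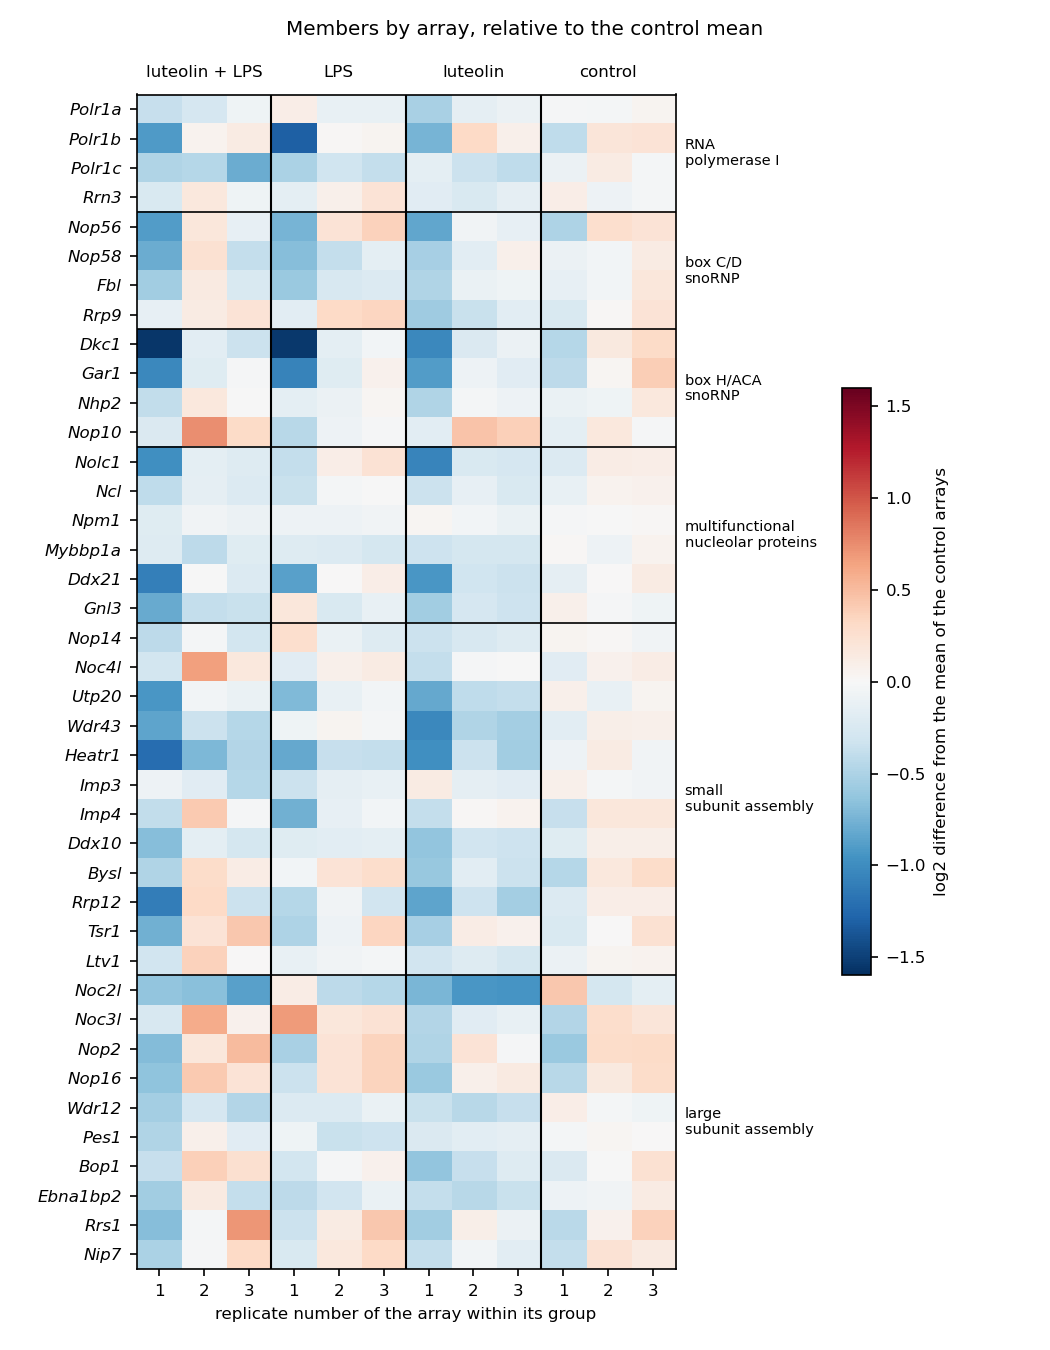
Log2 difference of each of the 40 members from its mean in the control arrays, for 12 arrays (columns, with their replicate number) and members ordered by role (lines). Blue is below and red above the control mean. The columns of replicate 1 are the bluest of each group, and Wdr43, Noc2l, Gnl3 and Wdr12 are blue in all 6 arrays with luteolin.

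**Figure D2:**
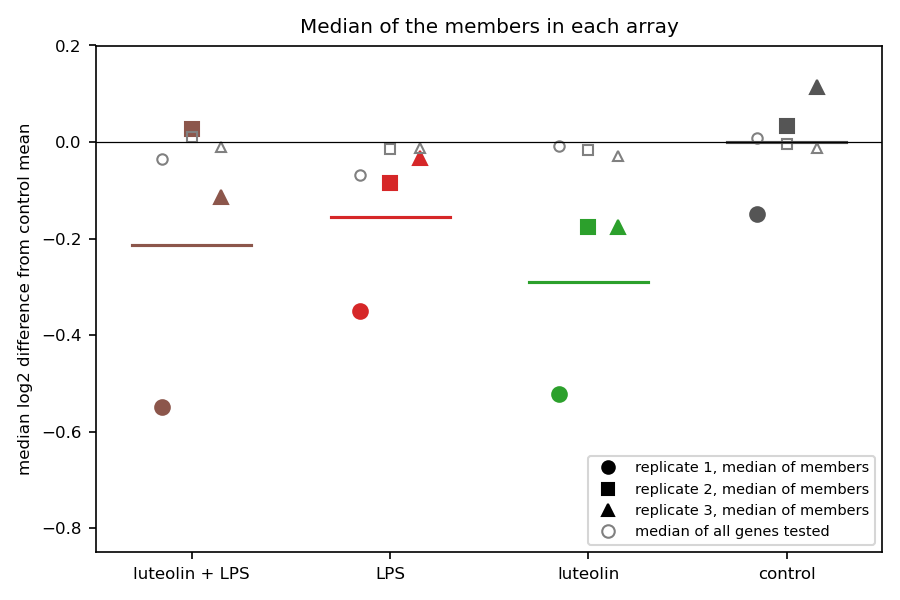
Median log2 difference of the 40 members from the control mean in each array (filled symbols, bars for the mean of the 3 arrays of a group) and the same median over all 12071 genes tested (open symbols). The members' median lies at -0.55 and -0.52 in replicate 1 of the luteolin + LPS and luteolin groups, while the median of all genes stays between -0.068 and 0.0095.

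In resting cells, luteolin was accompanied by lower signals of nearly the whole set, with differences that were small for most members. The log2 difference of luteolin to control was below 0 for 39 of 40 members, against 52.9% of all genes tested, with a median of -0.27 against -0.015 over all genes. This takes the brightest probe set of each gene. Of all 78 probe sets of members that reached a signal of 50, 66 were below 0, among them 27 of the 38 that were not the brightest, and 18 of the 28 members with more than 1 such probe set had the same sign in all of them. The middle 50% of members lay between -0.40 and -0.19, and the full range ran from -0.87 for Noc2l to 0.22 for Nop10. Within each of the 3 replicate numbers the median was below 0, at -0.34, -0.25 and -0.32, and 32 members were lower in all 3, against 27.1% of all genes. For 19 members the 3 luteolin arrays all lay under the 3 control arrays, which 11.3% of all genes did, and for no member did they all lie above, against 8.29%. Without the arrays of replicate 1 the median was -0.28. No member passed the threshold in limma (0 of 40, and 0% of all genes in either direction). At an unadjusted p under 0.05 there were 9 members below 0, against 5.91% of all genes, and 20 with the replicate block, against 9.64%. With the block 2 members, Noc2l and Wdr43, had adjusted p-values of 0.049 and 0.049 (0.199% of all genes were called lower there). With the number as a random block neither was called (adjusted p = 0.0623 and 0.066).

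The leading members in resting cells were Noc2l, Wdr43 and Heatr1. Noc2l, a partner of the large subunit precursor that also binds histones, had signals of 589, 513 and 507 in luteolin, against 1321, 806 and 873 in control, a log2 difference of -0.87 (SE 0.20, adjusted p = 0.227 in limma). The groups did not overlap, and every luteolin array was also below the control array of its number. A dimmer probe set of Noc2l, with an average signal of 176, lay at 0.057 for luteolin against control. Wdr43, the relative of yeast Utp5 that acts in the early small subunit precursor and in RNA polymerase I transcription, had 876, 1277 and 1224 in luteolin and 1595, 1902 and 1886 in control (-0.69, SE 0.17, adjusted p = 0.257 in limma). Its highest luteolin array was below its lowest control array. Heatr1, the relative of yeast Utp10, had 668, 1037 and 899 in luteolin, against 1252, 1446 and 1272 in control (-0.63, SE 0.22, adjusted p = 0.413 in limma), again with no overlap.

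In LPS-treated cells the median member lay nearer to 0. The difference of luteolin + LPS to LPS was below 0 for 29 of 40 members, against 47.1% of all genes, with a median of -0.085 against 0.016 over all genes. The medians within the 3 replicate numbers were -0.21, 0.023 and -0.093, so the members as a whole were lower in replicates 1 and 3 and near 0 in replicate 2. Arrays did not overlap, with luteolin + LPS the lower, for 4 members, Gnl3, Wdr43, Noc2l and Wdr12, against 8.04% of all genes. No member was called by limma (0 of 40, against 0.356% of all genes called lower and 0.149% higher), with 4 members below 0 at an unadjusted p under 0.05, against 7.98%. The block put 5 members below 0 and 2 above at that p, against 11.8% and 10.7% of all genes. With the replicate block 1 member was called, Wdr43, with an adjusted p of 0.0362 (2.84% of all genes were called lower), and 0.0507 with a random block. The median depended on single arrays: it was 0.11 without luteolin + LPS replicate 1, -0.22 without LPS replicate 1, and -0.021 without the arrays of replicate 1.

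Wdr43 had 995, 1413 and 1307 in luteolin + LPS, against 1708, 1842 and 1752 in LPS, a log2 difference of -0.53 (SE 0.17, adjusted p = 0.177 in limma). A further probe set of Wdr43, with an average signal of 1080, lay at -0.27 for luteolin + LPS against LPS. Noc2l had 633, 613 and 534 in luteolin + LPS, against 1063, 728 and 711 in LPS (-0.47, SE 0.20, adjusted p = 0.315). Gnl3, the nucleolar GTPase nucleostemin, had 1779.6, 2394 and 2438 in luteolin + LPS, against 3530.3, 2634 and 2884 in LPS (-0.46, SE 0.15, adjusted p = 0.199 in limma), with both its highest LPS and its lowest luteolin + LPS array in replicate 1. The members at the other end were Nop10, Imp4 (a partner of the U3 snoRNP) and Polr1b, at 0.45 (SE 0.24), 0.32 (SE 0.26) and 0.18 (SE 0.42), none of which passed the test.

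**Figure D3:**
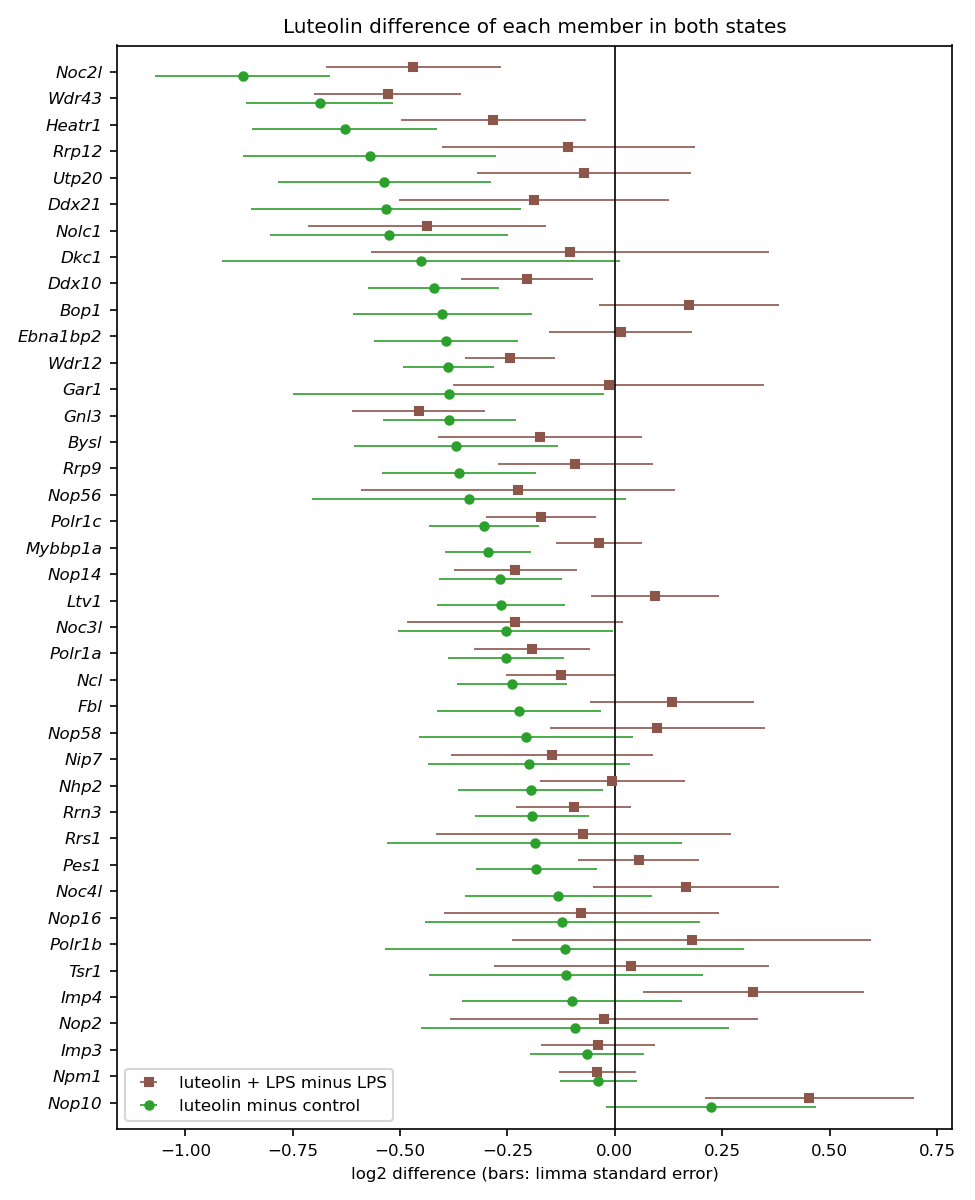
Log2 difference of luteolin + LPS to LPS (brown squares) and of luteolin to control (green circles) for each of the 40 members, with bars for 1 limma standard error, ordered by the difference in resting cells. All green circles but that of Nop10 lie left of 0, and for 38 members the brown square lies right of the green circle.

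Averaging the luteolin difference over resting and LPS-treated cells in the same fit gave smaller standard errors than either state alone. This mean effect was below 0 for 36 of 40 members, against 49% of all genes, with a median of -0.19 against 0.0054 over all genes, and -0.16 without the arrays of replicate 1. By limma 3 members fell and none rose, against 1.92% of all genes called lower and 1.16% higher. Wdr43 fell by 34.4% (-0.61, SE 0.12, adjusted p = 0.0265). Noc2l fell by 37.1% (-0.67, SE 0.14, adjusted p = 0.0363). Wdr12, which with Pes1 and Bop1 forms the PeBoW complex needed for the large subunit, fell by 19.7% (-0.32, SE 0.075, adjusted p = 0.0477). Its signals were 1527, 1852 and 1612 in luteolin + LPS and 1919, 1913 and 2064 in LPS. They were 1739, 1639 and 1728 in luteolin and 2389, 2179.8 and 2118 in control, so the arrays with luteolin were the lower in both states, with no overlap. Such a separation in both states was seen for 4 members, these 3 and Gnl3, and for 3.21% of all genes. The highest members were Nop10, Imp4 and Polr1b, at 0.34 (SE 0.17), 0.11 (SE 0.18) and 0.031 (SE 0.30).

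These 3 calls lay near the threshold. Leaving out 1 array at a time kept the log2 difference of Wdr43 between -0.66 and -0.52 but ended its call for 5 of 12 arrays (control replicates 2 and 3, luteolin replicate 3, LPS replicates 2 and 3), with an adjusted p of 0.0601 to 0.0729. The call of Noc2l ended for 8 arrays (control replicate 3, the 3 luteolin arrays, and replicates 2 and 3 of LPS and of luteolin + LPS), with an adjusted p of 0.056 to 0.097, and that of Wdr12 for 10 arrays (all but LPS replicate 1 and luteolin + LPS replicate 2), at 0.0738 to 0.113. Other probe sets of the same genes differed in part. A further probe set of Wdr43 gave -0.47 for the mean effect, a dimmer one of Noc2l with an average signal of 176 gave -0.074, and a dimmer one of Wdr12 at 165 gave 0.32. No member was called when the probe sets of each gene were averaged, against 1.35% of all genes lower and 1.1% higher. With the replicate block 7 members were called lower, against 6.22% of all genes: besides these 3, Nolc1 (-0.48, adjusted p = 0.0118 with the block), Heatr1 (-0.46, 0.0202), Gnl3 (-0.42, 0.0475) and Ddx10 (-0.31, 0.033), a helicase of the small subunit precursor. A random block called 6 members, all of these but Nolc1 (adjusted p = 0.051), against 5.72% of all genes called lower. Other probe sets of Nolc1 gave -0.46 (average signal 921) and -0.0094 (526) for the mean effect. Without the arrays of replicate 1, Wdr43, Noc2l and Nolc1 were called lower, against 5.89% of all genes, and Nop10 higher, against 3.15%. Without those of replicate 2 or of replicate 3 no member was called, and none of all the genes tested was called either.

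**Figure D4:**
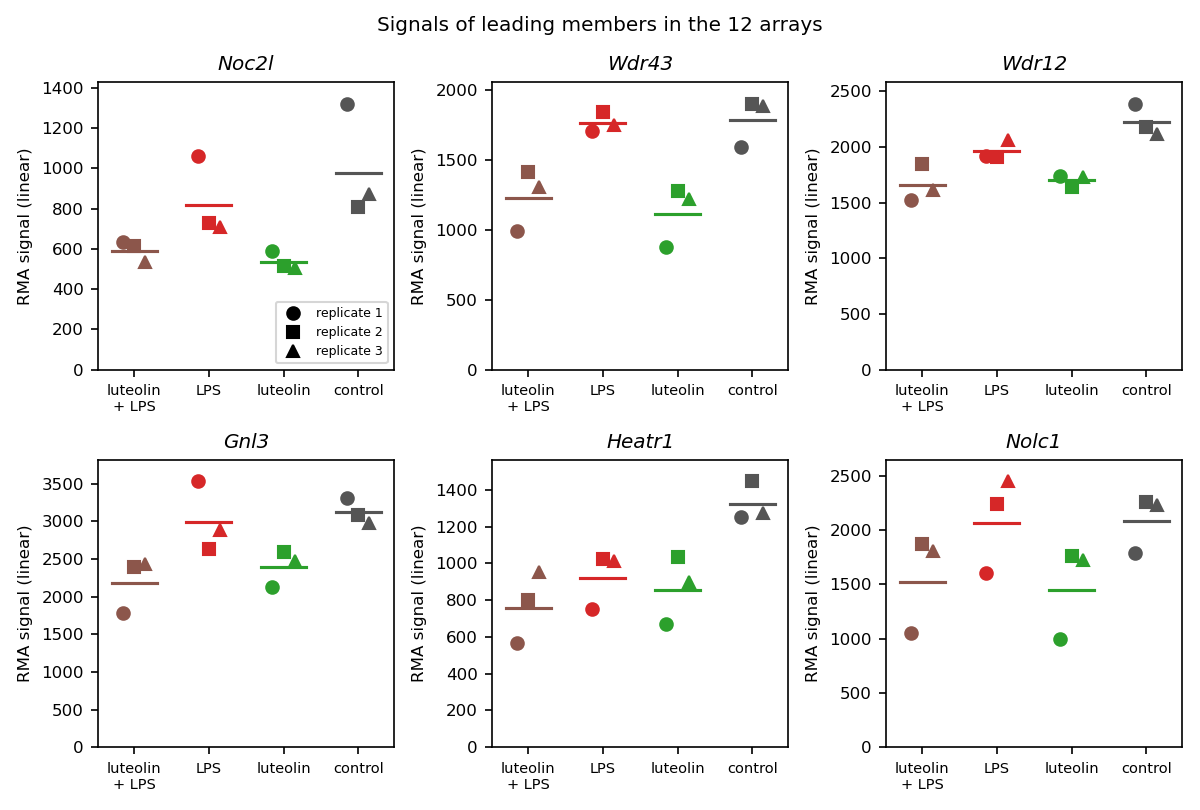
RMA signal (linear axis from 0) of 6 members in the 12 arrays, by group, with symbols for the replicate number and bars for the geometric mean of 3 arrays. In Wdr43, Wdr12, Gnl3 and Noc2l the arrays with luteolin lie under those without it in both states, and in Nolc1 and Heatr1 replicate 1 is the lowest array of each group.

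The promoters of the members that fell, and of 2 members with smaller differences that carry an E-box, are shown to place that motif in the set. The sequences are those of RefSeq on GRCm38.p6, 130 bases each, from 100 bases before the annotated start to 30 after it, 5′ to 3′ on the strand of the gene, with the palindrome CACGTG in capitals, which reads the same on both strands. They lie at chr17:71616115-71616244 (plus strand) for Wdr43, chr4:156235910-156236039 (plus strand) for Noc2l, chr1:60098471-60098600 (minus strand) for Wdr12, chr6:125131783-125131912 (plus strand) for Nop2 and chr16:13780599-13780728 (plus strand) for Rrn3, each at the most upstream start in the table (Noc2l has 2 listed starts and Wdr12 3).
Wdr43: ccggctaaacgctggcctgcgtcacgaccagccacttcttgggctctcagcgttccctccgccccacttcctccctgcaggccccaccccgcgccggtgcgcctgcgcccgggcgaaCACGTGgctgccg
Noc2l: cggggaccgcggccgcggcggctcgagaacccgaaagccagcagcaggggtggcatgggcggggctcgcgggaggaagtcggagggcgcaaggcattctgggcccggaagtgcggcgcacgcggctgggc
Wdr12: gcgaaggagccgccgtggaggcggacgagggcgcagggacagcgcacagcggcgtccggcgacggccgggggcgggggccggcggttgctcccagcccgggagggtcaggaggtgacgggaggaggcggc
Nop2: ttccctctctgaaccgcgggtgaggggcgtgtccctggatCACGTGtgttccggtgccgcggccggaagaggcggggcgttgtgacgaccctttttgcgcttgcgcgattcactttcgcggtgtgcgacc
Rrn3: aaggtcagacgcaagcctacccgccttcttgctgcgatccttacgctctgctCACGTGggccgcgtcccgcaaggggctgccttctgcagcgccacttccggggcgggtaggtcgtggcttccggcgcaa
In the full windows of 300 bases, 250 before and 50 after the start, CACGTG was found in 9 of the 35 members that matched (25.7%), in 16 of 95 other ribosome biogenesis genes (16.8%), in 11.6% of 9788 genes tested and in 8.09% of 27025 genes in the table. The 9 were Imp4, Ltv1, Mybbp1a, Nop2, Pes1, Rrn3, Tsr1, Utp20 and Wdr43. Their median difference of luteolin to control was -0.19, against -0.32 for the 26 members without the motif. A match describes these letters only.

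By role, the differences of luteolin to control were alike in direction. RNA polymerase I had a median of -0.22 over 4 members, box C/D proteins -0.28 over 4, box H/ACA proteins -0.29 over 4, multifunctional nucleolar proteins -0.34 over 6, small subunit assembly factors -0.32 over 12 and large subunit assembly factors -0.23 over 10. In every role all members were below 0 apart from Nop10. For luteolin + LPS against LPS the medians were -0.13, 0.0034, -0.010, -0.16, -0.090 and -0.076 in the same order of roles.

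Among the RNA polymerase I genes, Polr1a had 448, 577 and 598 in luteolin and 635, 625 and 661 in control (-0.25, SE 0.13), with no overlap. Rrn3, the initiation factor that brings the polymerase to ribosomal DNA, had 579, 554 and 596 in luteolin, against 708, 623 and 647 in control (-0.19, SE 0.13), also with no overlap. Polr1c, a subunit shared with RNA polymerase III, was the only member for which LPS took the largest share of the variance: it had 2323, 2381 and 1872 in luteolin + LPS, 2288, 2604 and 2488 in LPS, 2924, 2558 and 2447 in luteolin and 3037, 3567 and 3178 in control. All LPS arrays lay under all control arrays (-0.41, SE 0.13, adjusted p = 0.106 in limma, 0.0562 with the block and 0.045 with a random block), and LPS took 50.5% of its variance over the arrays. The random block called 1 member for LPS against control, while 6.21% of all genes were called lower there. In Polr1b, the other catalytic core subunit, the replicate number took 83.7% of the variance, with 301, 754 and 771 in the LPS arrays.

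For all 8 snoRNP proteins replicate 1 was the lowest array of every group. Nop56 and Nop58, which scaffold the box C/D particle, had -0.34 (SE 0.36) and -0.21 (SE 0.25) for luteolin against control, and Fbl (fibrillarin, the methyltransferase itself) -0.22 (SE 0.19). Dkc1 (dyskerin, the pseudouridine synthase) had 1176, 3085 and 2731 in luteolin + LPS, 1182, 3101 and 3356 in LPS, 1701, 2940.0 and 3243 in luteolin and 2519, 3842 and 4284 in control. The replicate number took 73.3% of the variance. The difference of -0.45 in luteolin had an SE of 0.46. Nhp2 had -0.20 (SE 0.17), and Gar1, the remaining partner, -0.39 (SE 0.36). With the replicate block the SE was 0.12 for Nop56, 0.18 for Nop58 and 0.13 for Fbl. It was 0.17 for Dkc1, 0.12 for Nhp2 and 0.12 for Gar1. Of these, all but Nhp2 were lower in luteolin within all 3 replicate numbers. None of them passed with the block (adjusted p = 0.184 for Gar1, 0.211 for Nop56 and 0.237 for Dkc1). Nop10 went the other way from the set, with 5542, 10879 and 8013 in luteolin + LPS and 4799.6, 6131 and 6401 in LPS, and 5795, 8912 and 8473 in luteolin and 5820.2, 7337 and 6434 in control. Its mean luteolin effect was 0.34 (SE 0.17, adjusted p = 0.322 in limma), and the pairs of replicate 1 differed least.

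Of the multifunctional nucleolar proteins, 5 of 6 had no overlap between luteolin and control, with luteolin the lower, against 11.3% of all genes. Mybbp1a, a repressor of MYB and of ribosomal RNA synthesis, had 3957, 4103 and 4088 in luteolin, against 5021, 4712 and 5183 in control (-0.30, SE 0.10), and 4324, 3701 and 4361 in luteolin + LPS, against 4311, 4281 and 4078 in LPS (-0.036, SE 0.10). The groups were separate in resting cells and overlapped under LPS. Nolc1, a chaperone of snoRNPs, had 998, 1758 and 1725 in luteolin, against 1789, 2257 and 2237 in control (-0.53, SE 0.28, adjusted p = 0.633 in limma). Ddx21, an RNA helicase, and Gnl3 had -0.53 (SE 0.32) and -0.39 (SE 0.15). Ncl had -0.24 (SE 0.13). Npm1, the brightest member, had 16419, 15579 and 14949 in luteolin and 15851, 16046 and 16277 in control (-0.038, SE 0.09), with overlapping arrays.

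All 12 small subunit factors were below 0 in luteolin against control, and for 7 of them the arrays did not overlap (11.3% of all genes with luteolin the lower). Beside Wdr43 and Heatr1, Rrp12 had 351, 501 and 434 in luteolin, against 540.4, 680.0 and 681 in control (-0.57, SE 0.29). Utp20, another factor of the early precursor, had 494, 656 and 666 in luteolin, against 918, 801 and 898 in control (-0.54, SE 0.25). Under LPS the same members had -0.11 (SE 0.29) and -0.072 (SE 0.25), with arrays that overlapped. Ddx10, Nop14 and Ltv1 (which leaves the late precursor) had -0.42, -0.27 and -0.26 in resting cells, without overlap, and Bysl (bystin) -0.37, with overlap. Imp3, Imp4, Tsr1 (a GTPase-like factor) and Noc4l were nearest to 0, at -0.065, -0.10, -0.11 and -0.13.

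All 10 measured large subunit factors were below 0 in luteolin against control, and for 4 of them the arrays did not overlap (11.3% of all genes with luteolin the lower). The PeBoW members had -0.39 (SE 0.11) for Wdr12, -0.40 (SE 0.21) for Bop1 and -0.18 (SE 0.14) for Pes1 in luteolin against control. A dimmer probe set of each lay above 0: 0.18 for Wdr12 (average signal 165), 0.20 for Bop1 (69.6) and 0.31 for Pes1 (293). Ebna1bp2 had 2102, 2003 and 2136 in luteolin and 2586, 2634 and 2992 in control (-0.39, SE 0.17), with no overlap. Nop2, a cytosine methyltransferase of large subunit RNA, and Nop16 followed the replicate number: the replicate number took 91.3% and 91.4% of their variance, the highest shares of the set, with -0.12 (SE 0.32) for Nop16 in luteolin against control. Nop2 had 719, 1325 and 1649 in luteolin + LPS, 817, 1363 and 1489 in LPS, 837, 1355 and 1154 in luteolin and 772, 1428 and 1437 in control. Its replicate 1 signals were the lowest of each group, and the luteolin difference was -0.092 (SE 0.36). Rrs1, Nip7 and Noc3l had -0.19 (SE 0.34), -0.20 (SE 0.23) and -0.25 (SE 0.25). A dimmer probe set of Nip7, with an average signal of 211, lay at 0.47 in luteolin against control. That probe set lay at 1.30 in luteolin + LPS against LPS.

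Across the 40 members the luteolin differences in LPS-treated and in resting cells, which share no array, had a Pearson correlation of 0.713 and a Spearman correlation of 0.61, against 0.488 and 0.496 over all 12071 genes. These are correlations across genes, which are not independent replicates and which share the replicate shifts. In 29 members the difference was below 0 in both states. The difference between the states, the interaction, was above 0 for 38 of 40 members, against 56% of all genes, meaning a smaller drop or a rise under LPS, with a median of 0.21 against 0.034 over all genes and 0.24 without the arrays of replicate 1. It was highest for Bop1 at 0.57 (SE 0.30), Utp20 at 0.46 (SE 0.35) and Rrp12 at 0.46 (SE 0.42), and lowest for Gnl3 at -0.07 (SE 0.22), Npm1 at -0.0023 (SE 0.13) and Noc3l at 0.022 (SE 0.35). No member passed the test of the interaction in limma (0 of 40 and 0% of all genes, with or without the block), and none had an unadjusted p under 0.05, against 1.56% of all genes above 0 and 1.59% below. With the block 2 members were above 0 at that p, against 3.52% of all genes. A different response to luteolin in the 2 states was therefore not shown for any member. Leaving out 1 array put the median between 0.066 (luteolin + LPS replicate 2) and 0.40 (luteolin + LPS replicate 1).

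LPS alone called no member without a block. Against the same control arrays that the luteolin comparison uses, LPS was below 0 for 31 of 40 members, against 54.9% of all genes, with a median of -0.11 against -0.038 over all genes and -0.10 without the arrays of replicate 1. Arrays did not overlap, with LPS the lower, for 10 members, against 16.1% of all genes. By limma 0 members were called (2.22% of all genes were called lower and 1.96% higher), 3 were below 0 at an unadjusted p under 0.05 (12.5% of all genes) and 8 with the block (17.9%), and with the block 1 was called lower (6.78% of all genes). That member was Heatr1, with 751, 1022 and 1015 in LPS, against 1252, 1446 and 1272 in control (-0.52, SE 0.22, adjusted p = 0.202 without, 0.0386 with the block and 0.0673 with a random block). The lowest member was Dkc1 at -0.58 (SE 0.46), followed by Heatr1 and Polr1b at -0.42 (SE 0.42), and without LPS replicate 1 Polr1b lay at 0.030. Fbl and Nop58 had -0.36 (SE 0.19) and -0.40 (SE 0.25), and Ebna1bp2 and Pes1 -0.28 (SE 0.17) and -0.25 (SE 0.14), each with all LPS arrays under all control arrays. The highest were Noc3l, Rrp9 and Bysl at 0.36, 0.16 and 0.15. For Noc3l this rested on replicate 1, without which it lay at -0.026, and for Bysl it was -0.076 without control replicate 1. Another probe set of Noc3l, with an average signal of 417, lay at -0.30 for LPS against control.

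In the presence of luteolin, luteolin + LPS against luteolin was below 0 for 12 of 40 members, against 49.8% of all genes, with a median of 0.075 against 0.0014 over all genes. Rrp9, which belongs to the U3 snoRNP, had 572, 688 and 726 in luteolin + LPS, against 424, 488 and 558 in luteolin (0.44, SE 0.18, adjusted p = 0.366 without, 0.0297 with the block and 0.0989 with a random block). It was the only member with all arrays of luteolin + LPS above those of luteolin, which 7.36% of all genes showed. Bop1 had 740.0, 1248 and 1138 in luteolin + LPS, against 618, 742 and 827 in luteolin (0.49, SE 0.21, adjusted p = 0.388 without, 0.0469 with the block and 0.12 with a random block). By limma 0 of 40 members were called (0.804% of all genes rose and 1% fell), 2 were above 0 at an unadjusted p under 0.05 (4.74% of all genes) and 4 with the block (6.93%), and with the block Rrp9 and Bop1 rose, against 1.74% of all genes. The lowest were Polr1c, Dkc1 and Imp3 at -0.27, -0.24 and -0.18, and Polr1c had all its luteolin + LPS arrays under the luteolin arrays (10.2% of all genes). Noc3l followed Bop1 and Rrp9 at 0.39 (SE 0.25). The sign of the median depended on single arrays: leaving out luteolin replicate 1 gave -0.040, luteolin + LPS replicate 2 -0.073 and luteolin + LPS replicate 3 -0.015, while leaving out all arrays of replicate 1 gave 0.12.

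A wider list of 120 other ribosome biogenesis genes, of which 114 were tested, was read beside the members. This list too was chosen with earlier results of these data known. Their difference of luteolin to control was below 0 for 94 of 114, with a median of -0.17, and 36 (31.6%) had arrays that did not overlap, with luteolin the lower, against 11.3% of all genes. For luteolin + LPS against LPS, 63 of 114 were below 0, with a median of -0.030. In the mean effect 3 fell (2.63%, against 1.92% of all genes) and 1 rose (0.877%, against 1.16%) by limma, near the shares over all genes. With the block 14 fell (12.3%, against 6.22%) and 1 rose (0.877%, against 3.89%). The 3 that fell without the block were Ngdn (-0.48, SE 0.08, adjusted p = 0.0173) and Utp3 (-0.46, SE 0.11, adjusted p = 0.0475), both of the small subunit precursor, and Nmd3 (-0.48, SE 0.095, adjusted p = 0.0263), the export adaptor of the large subunit. The gene that rose was Pih1d1 (0.59, SE 0.11, adjusted p = 0.0202), a cofactor of snoRNP assembly. In LPS against control 1 of the 114 fell (0.877%, against 2.22% of all genes), Ppan (-0.59, SE 0.14, adjusted p = 0.0459), a factor of the large subunit.

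Neighbouring groups of genes differed in how far they shared this. In luteolin against control the RNA exosome, which trims ribosomal RNA, had a median of -0.18 over 14 genes with 13 below 0 (Exosc7, a core subunit, at -0.31), RNA polymerase III -0.068 over 14 (Polr3e at -0.40), and translation initiation and elongation factors -0.084 over 32 with 29 below 0. The cytosolic ribosomal proteins, of which 43 of 79 listed could be tested, had a median of -0.017 with 27 below 0, close to the -0.015 of all genes, with Rps27 the furthest from 0 at -0.37. Purine and pyrimidine synthesis had -0.10 over 18 genes. No gene of all 12071 was called by limma in that comparison, so calls cannot set these groups apart there. In the mean effect 1 of 32 translation factors, Eif5b (-0.41, adjusted p = 0.0412 in limma), fell. So did 1 of 18 purine and pyrimidine genes, the pyrimidine enzyme Dhodh (-0.66, adjusted p = 0.014 in limma), against 1.92% of all genes. In LPS against control Eif4b (-0.77, adjusted p = 0.026 in limma) and the RNA polymerase III subunit Polr3gl (-0.68, adjusted p = 0.0431 in limma) fell, against 2.22% of all genes.

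**Figure D5:**
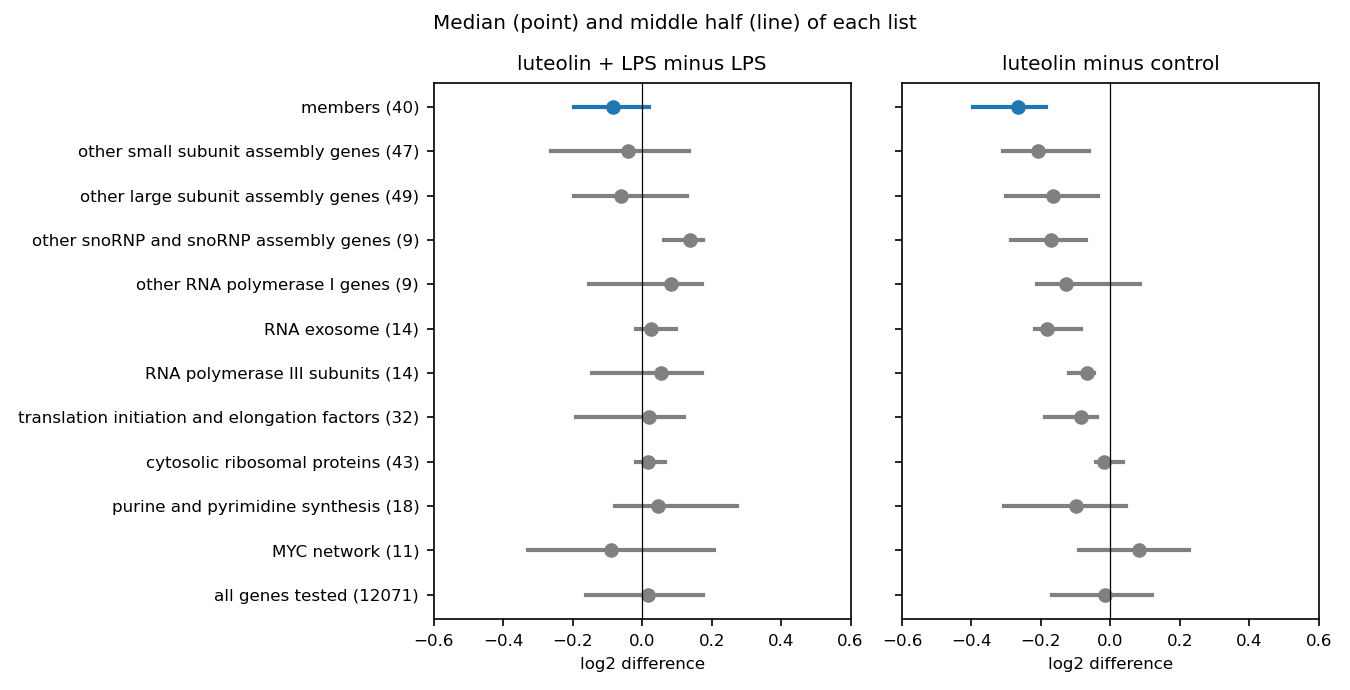
Median log2 difference (point) and middle 50% (line) of the members and of each list of related genes, with the number of genes tested in brackets, for luteolin + LPS minus LPS (left) and luteolin minus control (right). On the right the members, at -0.27, lie furthest left, and ribosomal proteins at -0.017 lie beside all genes at -0.015.

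In the MYC network, 11 genes in all, the median of luteolin against control was 0.083. Myc itself had signals of 627, 155 and 487 in luteolin + LPS and 781, 307 and 484 in LPS, against 158, 80.7 and 82.8 in luteolin and 95.2, 52.2 and 92.1 in control. The arrays with LPS were all above the control arrays, and Myc rose in LPS against control (2.66, SE 0.52, adjusted p = 0.0188 in limma), while its luteolin differences were -0.43 (SE 0.52) under LPS and 0.40 (SE 0.52) in resting cells and did not pass. Mxd4, which opposes MYC at its sites, fell in LPS against control (-1.50, SE 0.27, adjusted p = 0.0123 in limma) and in luteolin + LPS against luteolin (-1.53, SE 0.27, adjusted p = 0.0186 in limma). Mycn was bright in all 12 arrays, at 19815 to 25287. The part of these transcripts in the members' differences was not tested.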

How the data were processed

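BV-2 RNA from 3 stimulation experiments was hybridised to Affymetrix mouse arrays, 12 in all. The authors summarized feature intensities into 1 linear RMA intensity per probe set (RMA per the methods, Expression Console), and the deposited table held these intensities for 45101 probe sets. Their log2 was taken here. For the joint treatment the methods print LPS in place of luteolin, and the labels were followed (luteolin + LPS). The labels' extraction text also names PUER cells.

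Each gene was represented by its brightest probe set naming 1 gene, among genes with a geometric mean intensity of at least 50 in 1 or more groups. In limma 3.58.1 (R 4.3.3), 1 linear model of the 4 groups took in the 12 arrays and gave 6 contrasts. P-values were adjusted by Benjamini-Hochberg over 12071 genes at a threshold of 0.05. Tables and plots used Python 3.11.15, pandas 2.3.3 and matplotlib 3.10.9. The fit was tested on simulated data with independent noise in each array. These held no shift shared by a replicate number, so the test does not cover such shifts.

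All 18 pairs of arrays of the same number in different groups deviated together (r 0.101 to 0.591, median 0.42). The median between different numbers was -0.30. These medians are not independent of each other, because deviations from a group mean cancel within the group. The main fit did not pair the arrays, and the number served as a block only in alternative fits. A random block had a consensus correlation of 0.263. Alternatives were the block, filters on dim probe sets, other probe set rules, normalizations, weights, a pseudocount of 16 and leaving out arrays. The number of arrays limits the precision.

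Members and lists were chosen with earlier results of these data known. In each comparison the text names members past the threshold, the 3 highest and 3 lowest, up to 6 whose arrays do not overlap, at least 2 per role, and of each list the genes called or else the furthest from 0. Separate lists held markers of other cell types.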

Additional observations from a re-analysis of the deposited data

Results flagged for a closer look

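Imp4, which with Imp3 and Mphosph10 acts beside the U3 snoRNP in the small subunit precursor, had luteolin differences of opposite sign in the 2 states by its brightest probe set. Luteolin + LPS lay above LPS within all 3 replicate numbers (0.32 on the log2 scale, SE 0.26, adjusted p = 0.621 in limma) and luteolin lay below control in all 3 (-0.10, SE 0.26, adjusted p = 0.965), so neither difference passed the test, and the resting one had the other sign in 2 of 27 alternatives, reaching 0.055. The interaction of 0.42 was tested and did not pass, with an adjusted p of 0.999 in limma. Another probe set of Imp4, with an average signal of 499, lay above 0 in both states, at 0.48 under LPS and 0.39 in resting cells. A dimmer one at 180 had 0.068 under LPS and -0.13 in resting cells.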

How the results depend on the processing

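Each of 52 results was recomputed under up to 27 alternatives. Members called under the replicate block, against 0 without it, were 2 for luteolin versus control, 1 for luteolin + LPS versus LPS, 2 for luteolin + LPS versus luteolin and 1 for LPS versus control. For the mean luteolin effect the block called 7, the random block 6, array weights 9 and averaged probe sets 0, against 3. The random block called 0 for luteolin versus control, luteolin + LPS versus LPS and luteolin + LPS versus luteolin, and for LPS versus control it called 1, Polr1c in place of Heatr1, and array weights called 3 there and 10 for luteolin versus control. Over all genes the random block called 9.18% for the mean effect and 10.4% for LPS versus control. It called 0.191% for luteolin versus control, 3.68% for luteolin + LPS versus LPS and 3.98% for luteolin + LPS versus luteolin. With all arrays of 1 replicate number left out, settings chosen after seeing the data, luteolin + LPS versus luteolin had 1 without replicate 1, and the mean effect had 4 without replicate 1 and 0 without replicate 2 or 3. The block changed no call of the interaction. Over all genes, 372 were called for the mean effect (1220 with the block, 1767 with array weights, 0 without replicate 2 or 3 and 1090 without replicate 1), 0 for luteolin versus control (34 and 962), 61 for luteolin + LPS versus LPS (578 and 292, and 512 without replicate 1), 505 for LPS versus control (1338 and 1950) and 218 for luteolin + LPS versus luteolin (554 and 592, and 484 without replicate 1).

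Leaving out 1 array at a time called 0 to 3 members for the mean effect. The members' median then ranged from -0.35 to -0.18 for luteolin versus control, -0.22 to 0.11 for luteolin + LPS versus LPS, -0.20 to -0.060 for LPS versus control, -0.073 to 0.28 for luteolin + LPS versus luteolin and 0.066 to 0.40 for the interaction.

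Single members changed sign. With 1 array left out, log2 differences ranged from -0.076 to 0.30 for Bysl and -0.65 to 0.030 for Polr1b in LPS versus control, -0.52 to 0.20 for Dkc1 in luteolin + LPS versus luteolin, -0.27 to 0.51 for Polr1b in luteolin + LPS versus LPS, -0.19 to 0.20 for Polr1b and -0.0027 to 0.21 for Imp4 in the mean effect, and -0.16 to 0.077 for Gnl3, -0.21 to 0.25 for Noc3l and -0.03 to 0.04 for Npm1 in the interaction. Array weights gave 0.0056 for Gnl3 and 0.044 for Npm1 in the interaction, -0.0069 for Imp4 and -0.082 for Polr1b in the mean effect and -0.071 for Polr1b in luteolin + LPS versus LPS. Repeated quantile normalization gave -0.019 for Noc3l in the interaction, centring gave 0.036 and averaged probe sets 0.059 for Npm1. With all arrays of 1 number left out, the interaction reached 0.069 for Gnl3, -0.40 to 0.50 for Noc3l (-0.035 without replicate 3) and -0.045 to 0.19 for Npm1, LPS versus control -0.026 to 0.59 for Noc3l, and luteolin versus control 0.0041 for Npm1. The cause was not tested.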
